A study of Homo sapiens with 6 samples.

Results

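The genes described here encode parts of the insulin-like growth factor (IGF) signaling pathway. They are 10 of the 60655 genes in the count table and were taken by name: the ligand gene *IGF2*, the receptor genes *IGF1R*, *IGF2R* and *INSR*, the substrate and adaptor genes *IRS1*, *IRS2*, *IRS4* and *GRB10*, and the binding protein genes *IGFBP2* and *IGFBP5*. RNA immunoprecipitation followed by sequencing (RIP-seq) was done in WaGa, an established Merkel cell carcinoma (MCC) cell line that carries Merkel cell polyomavirus. RNA that came down with an IGF2BP3 antibody (IGF2BP3 IP, 3 libraries) was compared with RNA that came down with a control IgG (IgG IP, 3 libraries). The cells of both groups were wild type, grown in RPMI with serum and left without treatment, so by the labels only the antibody differed. All libraries came from 1 cell line, and the values are levels of RNA recovered in an IP and not levels in the cells.

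IGF2 and IGF1 are secreted ligands that activate the tyrosine kinase receptor IGF1R, and IGF2 can also act through INSR, the insulin receptor. IRS proteins dock on the active receptors and pass the signal to the PI3K-AKT and RAS-MAPK arms, IGF2R takes IGF2 up for breakdown, and IGF-binding proteins hold the ligands outside the cell. IGF2BP3 is an RNA-binding protein whose family took its name from binding to *IGF2* mRNA, so the comparison asks which mRNAs of the pathway were recovered with it in MCC cells.

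Counts on genes ran from 9758759 to 14886414 per library. Replicate 1 stood apart in both groups, with a chi-square statistic of the counts over its degrees of freedom of 18.2 to 22.0 in pairs that held replicate 1, against 2.19 (IgG IP) and 3.25 (IGF2BP3 IP) in pairs that did not. Of 10 MCC marker genes, 9 had at least 10 counts in every library, among them *KRT20* with 7434 to 12104 and *ATOH1*. *NEUROD1* had 0 to 2. Of 12 marker genes of fibroblasts, endothelium, leukocytes and keratinocytes, 1 reached 10 counts in every library, the fibroblast gene *DCN* with 479 to 762. The other fibroblast markers *COL1A1*, *COL1A2* and *COL3A1* were at 0 to 2, and the other 8 of the 12 at 0 to 11.

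*IGF1R* stood highest among the members in the IGF2BP3 IP relative to the IgG IP, and the other tested members differed less from the control. IGF2BP proteins have been linked to short CA-rich and GGC- or GGAC-containing elements. The letters CACA, GGCA and GGAC were therefore looked up in coding exons of all 10 members. The 3 receptor genes are shown, since they are set against each other in the comparison. For each gene, the 120-base window inside 1 coding exon of the canonical transcript that holds the most matches is shown 5′ to 3′ on the strand of the transcript, with the matches in capitals. The *IGF1R* window lies on the plus strand of GRCh38 at chr15:98913059-98913178 in exon 8, the *IGF2R* window on the plus strand at chr6:160027185-160027304 in exon 6, and the *INSR* window on the minus strand at chr19:7184394-7184513 in exon 3.
IGF1R: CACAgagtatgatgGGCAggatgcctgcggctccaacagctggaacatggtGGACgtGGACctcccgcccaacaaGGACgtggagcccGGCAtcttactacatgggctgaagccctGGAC
IGF2R: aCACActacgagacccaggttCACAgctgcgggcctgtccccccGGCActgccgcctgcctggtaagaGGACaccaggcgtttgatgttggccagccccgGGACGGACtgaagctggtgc
INSR: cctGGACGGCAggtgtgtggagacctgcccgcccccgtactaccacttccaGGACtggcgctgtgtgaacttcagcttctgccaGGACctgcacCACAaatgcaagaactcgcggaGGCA
The *IGF1R* window held 7 matches: 1 CACA, 2 GGCA and 4 GGAC. Only the sense strand was searched, and the motifs may share bases with each other. The *IGF2R* and *INSR* windows held 6 matches each, as did the best windows of *IRS1* and *IRS2*. The best windows of *IRS4* and *IGFBP5* held 5, that of *IGFBP2* 4, that of *GRB10* 3 and that of *IGF2* 2. Untranslated sequence was not searched, and the canonical *IGF2* transcript has 540 coding bases and 3873 after them. The background was 117731 non-overlapping coding windows of the same length from the tested genes. Of these, 0.372% held at least 7 matches, 1.23% at least 6 and 50.5% at least 2, and the median was 2.0. Single motifs were common, with CACA in 40.2%, GGCA in 44.1% and GGAC in 41.6% of the windows. The windows of the members were picked for their matches from every position, and genes with longer coding sequence offer more of them. The background windows were not picked, so their shares are not a like comparison. The counts are per gene and do not show which stretch of an mRNA was recovered, so the matches are a description of sequence only.

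The ligand gene that gave IGF2BP3 its name gave almost no reads in either group. In replicates 1 to 3, *IGF2* counts were 1, 0 and 0 with the IgG and 0, 1 and 0 with the IGF2BP3 antibody. Its highest TPM (the RSEM level scaled for transcript length and library size) was 0.31. A count of 0 allows up to 3 counts, which corresponds to 0.201 to 0.325 CPM (counts scaled to the normalized library size) in these libraries. TPM values were above 0 in 5 of the 6 libraries, and the highest was in IGF2BP3 IP replicate 3, where the count was 0, so counts and TPM differ on which libraries held *IGF2* reads. Both put *IGF2* at or near 0 in each library, and no difference between the groups was tested. The canonical *IGF2* transcript holds 32.97 CACA per kb, in the 100.0 percentile of the tested genes, whose median is 4.302. *IGF2-AS*, *INS-IGF2* and *MIR483*, which overlap *IGF2*, were at 0 in all 6 libraries. *H19*, a long noncoding RNA gene next to *IGF2* in the same imprinted region, held 50, 240 and 185 IgG IP counts and 84, 312 and 227 IGF2BP3 IP counts. The groups overlapped, and its log2 fold change of 0.41 (95% confidence interval -0.62 to 1.43, adjusted p = 0.7583, edgeR) did not pass.

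Other members without measurable reads were the insulin receptor substrate gene *IRS4* and the adaptor gene *GRB10*. *IRS4* was at 0 in all libraries. *GRB10*, whose product binds active insulin and IGF receptors and dampens their signal, held 1, 2 and 0 IgG IP counts and 0, 0 and 3 IGF2BP3 IP counts. The remaining 7 of the 10 members passed the expression filter of edgeR and were tested.

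Of the 7 tested members, 0 were enriched and 0 lower at a fold change of at least 1.5 (log2 0.58) and an adjusted p (Benjamini-Hochberg, over all tested genes) under 0.05 (edgeR quasi-likelihood test, condition as the only term). Of all 14507 tested genes, 1.16% were enriched and 0% lower. Without adjustment, 59 genes had a p under 0.05 and a level at least 1.5-fold lower, and 0 of them were members. DESeq2 called 0 genes lower. In edgeR with a replicate block, 1 member was enriched, *IGF1R*, where 3.56% of all tested genes were. With DESeq2, the test named in the methods, it was again 1, *IGF1R*, where 2.22% of the 12640 genes with an adjusted p were. The log2 fold change was above 0 in 6 of the 7 and below 0 in 1, with a median of 0.20 against -0.01 over all tested genes, of which 48.9% were above 0.

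**Figure D1:**
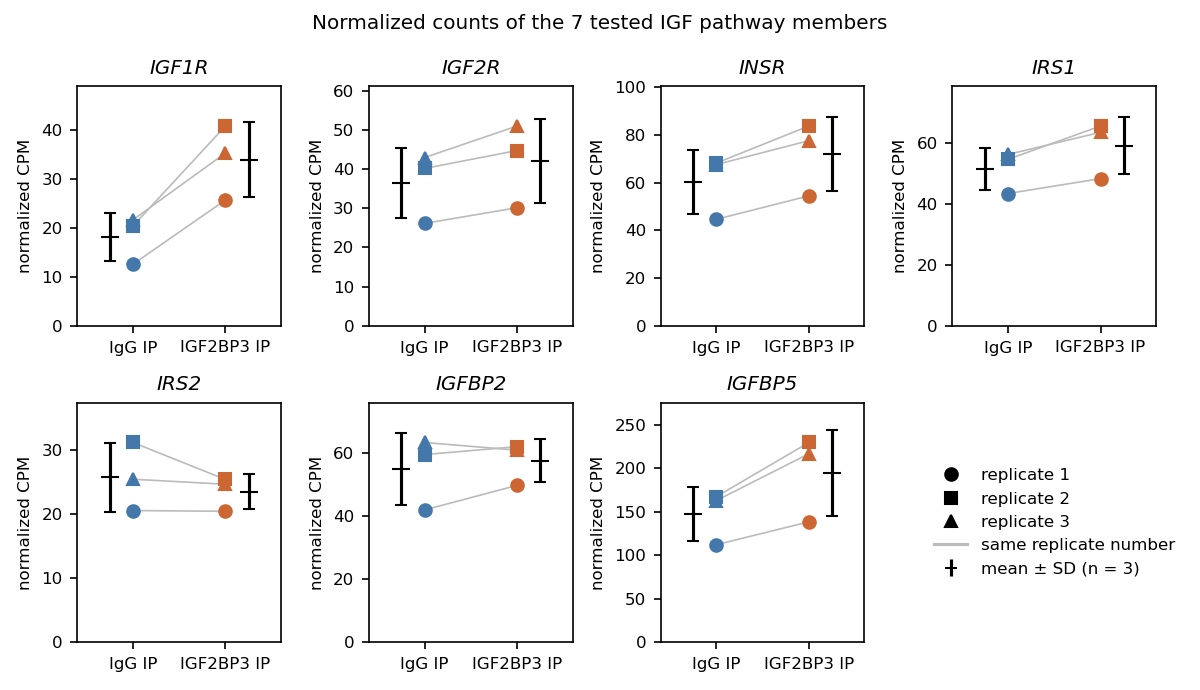
Normalized CPM of the 7 tested members in each library (vertical axes start at 0), with IgG IP in blue and IGF2BP3 IP in orange, marker shape for the replicate number, grey lines joining the same number, and black bars for mean ± SD (n = 3). The groups are separate for *IGF1R*, with 12.57 to 21.62 against 25.69 to 40.79 CPM, and overlap for the other 6 members, and replicate 1 is the lowest of its group in every panel.

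*IGF1R* (ENSG00000140443.15), the type 1 IGF receptor, lies on the plus strand of chromosome 15 (GRCh38, chr15:98648539-98964530) and has 21 exons in its canonical transcript. Its counts in replicates 1 to 3 were 116, 304 and 268 with the IgG and 306, 540 and 434 with the IGF2BP3 antibody. After normalization these were 12.57, 20.37 and 21.62 CPM in the IgG IP and 25.69, 40.79 and 35.28 CPM in the IGF2BP3 IP. The lowest IGF2BP3 IP library, replicate 1, lay above the highest IgG IP library, replicate 3, an order found in 12% of all tested genes. The means were 18.2 ± 4.90 CPM (SD, n = 3) and 33.9 ± 7.64 CPM (SD, n = 3). The log2 fold change came to 0.89 ± 0.22 (standard error; 95% confidence interval 0.38 to 1.40), or 1.85-fold with an interval from 1.30 to 2.63. A log2 fold change at least as high was found in 1.44% of the tested genes. The adjusted p was 0.1108 with edgeR's quasi-likelihood test, so *IGF1R* was not called. An exact two-sided permutation test over the 6 libraries gave p = 0.10, the smallest that 3 against 3 allows.

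Within same-numbered libraries, *IGF1R* was higher in the IGF2BP3 IP by 1.03, 1.00 and 0.71 on the log2 scale for replicates 1 to 3. With the replicate block its log2 fold change was 0.90 (95% confidence interval 0.70 to 1.10, adjusted p = 2.296e-07, edgeR), past both thresholds. With DESeq2 it was 0.88 (adjusted p = 0.008303), also past both. Without both replicate 1 libraries, a setting chosen after seeing the data, it was 0.86 with an adjusted p of 7.418e-06 (edgeR). Without IGF2BP3 IP replicate 1 alone it was 1.05 (adjusted p = 0.04308, edgeR), also past both. Across the settings tried, the log2 fold change stayed between 0.70 and 1.34 while the call depended on the setting. Of 18 alternatives, 7 called *IGF1R* and 11 did not.

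**Figure D2:**
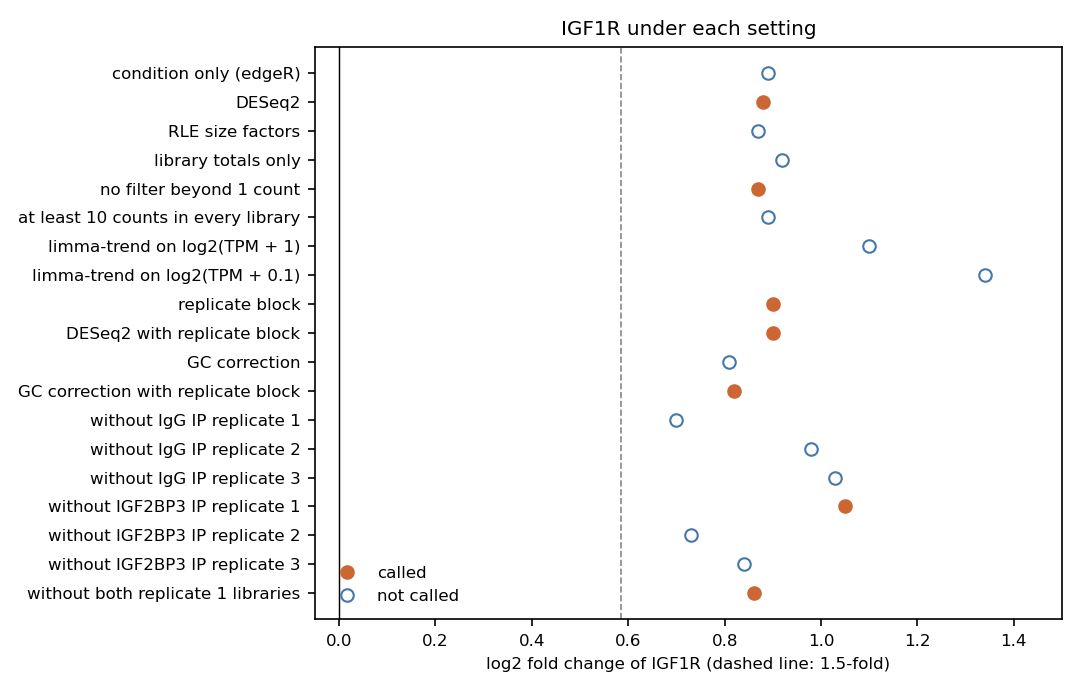
Log2 fold change of *IGF1R* (horizontal axis, IGF2BP3 IP over IgG IP) under each setting (vertical axis), filled where a fold change of at least 1.5 and an adjusted p under 0.05 were both met, with the dashed line at 1.5-fold. All points lie to the right of the dashed line, from 0.70 without IgG IP replicate 1 to 1.34 with log2(TPM + 0.1).

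The other receptors differed less from the control. *IGF2R*, the receptor that clears IGF2 and carries lysosomal enzymes, had 26.12, 40.14 and 42.91 CPM in the IgG IP and 30.14, 44.71 and 50.96 CPM in the IGF2BP3 IP. *INSR* had 44.66, 68.22 and 67.59 CPM in the IgG IP and 54.49, 83.76 and 77.62 CPM in the IGF2BP3 IP. For both genes the groups overlapped, with replicate 1 low in both groups, while each IGF2BP3 IP library was above the IgG IP library of the same number. The log2 fold change of *IGF2R* was 0.20 (95% confidence interval -0.31 to 0.70, adjusted p = 0.7634, edgeR). That of *INSR* was 0.25 (-0.19 to 0.70, adjusted p = 0.6359, edgeR). With the replicate block *INSR* was at 0.26 (adjusted p = 0.01117, edgeR), under the fold change minimum, and *IGF2R* at 0.20 (adjusted p = 0.08704). Leaving out 1 library moved *IGF2R* between 0.02 (without IgG IP replicate 1 or IGF2BP3 IP replicate 3) and 0.39 (without IGF2BP3 IP replicate 1), and *INSR* between 0.09 and 0.42, with the low value on dropping IgG IP replicate 1 and the high value on dropping IGF2BP3 IP replicate 1.

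**Figure D3:**
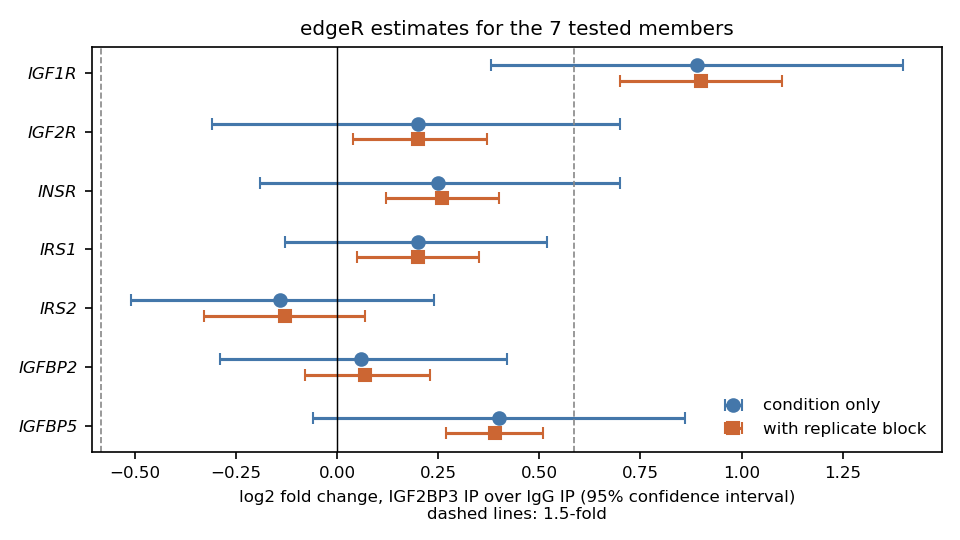
Log2 fold change (horizontal axis, IGF2BP3 IP over IgG IP) with its 95% confidence interval for the 7 tested members (vertical axis), from edgeR with condition only (blue circles) and with the replicate block (orange squares), dashed lines at 1.5-fold in either direction. The interval of *IGF1R* excludes 0 in both fits, at 0.38 to 1.40 and 0.70 to 1.10, and those of the other members with condition only all include 0.

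Whether *IGF1R* differed from the other receptors was compared within libraries, where normalization cancels. Counts of *IGF1R* over those of *INSR* had log2 ratios of -1.82, -1.74 and -1.64 in the IgG IP against -1.08, -1.04 and -1.14 in the IGF2BP3 IP. The groups did not overlap and differed by 0.65, or 1.57-fold. The log2 ratio of *IGF1R* to *IGF2R* was -1.05, -0.98 and -0.99 in the IgG IP against -0.23, -0.13 and -0.53 in the IGF2BP3 IP, again without overlap, and differed by 0.71, or 1.63-fold. Both gave an exact two-sided permutation p of 0.10, the smallest possible here, and 0.133 after Benjamini-Hochberg adjustment over the 4 pairs compared. With 3 against 3 libraries neither difference could pass 0.05 in this test, so the test cannot decide whether they hold. On TPM values the differences were 1.14 and 0.93, without overlap.

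**Figure D4:**
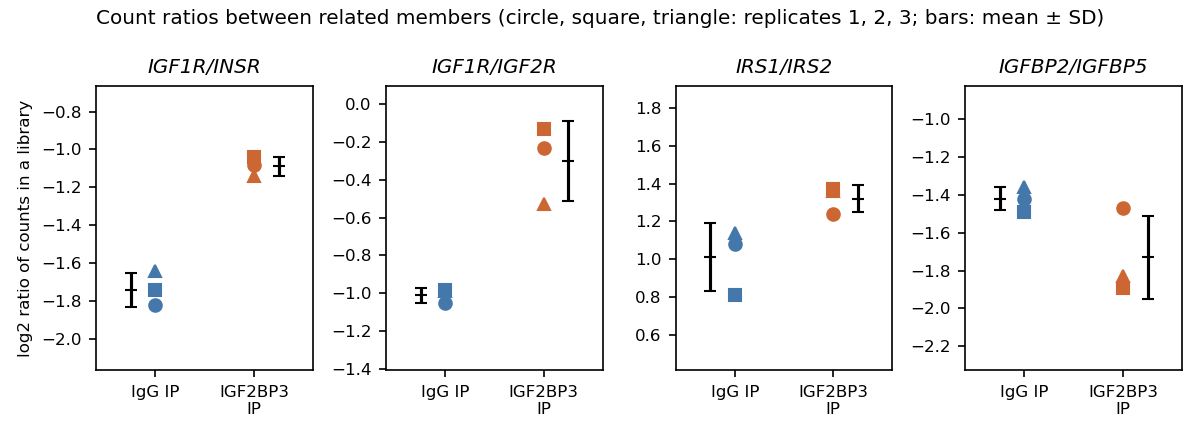
Log2 ratio of counts between related members within each library (vertical axes differ in position and share 1 scale), IgG IP in blue and IGF2BP3 IP in orange, marker shape for the replicate number and bars for mean ± SD (n = 3). The groups are separate for *IGF1R/INSR*, *IGF1R/IGF2R* and *IRS1/IRS2*, with differences of 0.65, 0.71 and 0.31, and overlap for *IGFBP2/IGFBP5*.

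Among the substrates, *IRS1* and *IRS2* couple the receptors to PI3K. *IRS1* had 43.47, 54.68 and 56.3 CPM in the IgG IP and 48.36, 65.64 and 63.56 CPM in the IGF2BP3 IP, with a log2 fold change of 0.20 (95% confidence interval -0.13 to 0.52, adjusted p = 0.615, edgeR). *IRS2* had 20.6, 31.23 and 25.49 CPM in the IgG IP and 20.48, 25.45 and 24.71 CPM in the IGF2BP3 IP. It was the only tested member with a log2 fold change below 0, at -0.14 (-0.51 to 0.24, adjusted p = 0.7852, edgeR), and 0.03 without IgG IP replicate 2. With a GC correction it was -0.32 (adjusted p = 0.5631), and with the replicate block as well -0.31 (adjusted p = 0.02708, edgeR), short of the fold change minimum. Groups overlapped for both genes. The log2 ratio of *IRS1* to *IRS2* counts was 1.08, 0.81 and 1.14 in the IgG IP against 1.24, 1.37 and 1.36 in the IGF2BP3 IP. These did not overlap and differed by 0.31, or 1.24-fold, with an exact permutation p of 0.10 (adjusted 0.133).

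The binding protein genes lie side by side on chromosome 2, with *IGFBP2* on the plus strand (chr2:216632828-216664436) and *IGFBP5* on the minus strand (chr2:216672105-216695549). *IGFBP5* had 112.3, 167.5 and 163.0 CPM in the IgG IP and 138.6, 229.8 and 216.9 CPM in the IGF2BP3 IP. The groups overlapped, since replicate 1 of the IGF2BP3 IP lay below replicates 2 and 3 of the IgG IP. Its log2 fold change was 0.40 (95% confidence interval -0.06 to 0.86, adjusted p = 0.467, edgeR), the second highest of the tested members. With the replicate block it was 0.39 (adjusted p = 2.66e-05, edgeR), under the fold change minimum. *IGFBP2* had 42.06, 59.64 and 63.48 CPM in the IgG IP and 49.87, 62.16 and 61.04 CPM in the IGF2BP3 IP, with a log2 fold change of 0.06 (-0.29 to 0.42, adjusted p = 0.9116, edgeR). Its sign turned with a correction for GC content, to -0.15; its transcript, at 67.4% GC, was in the 98.7 percentile. The log2 ratio of *IGFBP2* to *IGFBP5* counts differed by -0.31 between the groups, which overlapped (exact permutation p = 0.20, adjusted 0.2).

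On the TPM scale, which allows levels of different genes to be compared, the binding protein genes led in both groups. In the IgG IP, *IGFBP2* was at 57.7 ± 22.7 TPM (SD, n = 3) and *IGFBP5* at 26.2 ± 9.82 TPM. *INSR* (7.97 ± 2.77), *IRS1* (5.88 ± 1.95), *IGF2R* (4.73 ± 2.09), *IRS2* (3.13 ± 1.21) and *IGF1R* (2.72 ± 0.997) followed in mean TPM. Neighbours in this order lay within their SDs from *INSR* downwards, and *IGF1R* was the lowest of the 7. In the IGF2BP3 IP, *IGF1R* was at 7.02 ± 2.33 TPM, beside *IRS1* (7.21 ± 2.13) and *IGF2R* (6.21 ± 1.99) and below *INSR* (9.49 ± 3.64). *IRS2* (2.99 ± 0.739) was then the lowest, and *IGFBP2* (68.7 ± 24.4) and *IGFBP5* (38.2 ± 14.4) stayed the highest.

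The transcripts of the 7 tested members also differ in length. The canonical *IGF1R* transcript has 12235 bases, 7091 of them after the coding sequence, in the 98.1 and 97.0 percentiles of the tested genes. *IGF2R*, with 14061 bases, is longer still, and *INSR* has 9463. *IGFBP2* is short, with 1414 bases. The density of CACA was alike in *IGF1R* (6.048 per kb) and *IGF2R* (6.116 per kb) and lower in *INSR* (4.121 per kb). Among the receptor genes, the other motifs were least dense in *IGF1R*. GGAC was at 3.515 per kb against 4.48 in *IGF2R* and 4.121 in *INSR*, and GGCA at 4.25 against 4.907 and 4.438.

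Genes whose pattern over the 6 libraries was most like that of *IGF1R* were *RTL8C*, *WFS1*, *NFIC*, *TRIB3* and *SAP130*. Likeness was the root mean square difference of log2 CPM centred on each gene's mean, which was 0.057 to 0.085. Their log2 fold changes were 0.85 to 0.98, close to that of *IGF1R* because the genes were picked for likeness in the same libraries. None of the 5 was called in edgeR with condition only. *WFS1* held few counts, 8 to 38 per library.

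Around the members, 98 other genes of the pathway were looked up and 80 were tested. Of these, 2 were enriched, *SHC1* and *TSC2*, and 0 were lower. That is 2.5% of the 80, against 1.16% enriched and 0% lower among all tested genes. The median log2 fold change was 0.10 against -0.01 over all tested genes. Above 0 were 56 of the 80, against 48.9% of all tested genes. The IGF2BP3 IP values lay wholly above the IgG IP values in 15 of the 80, against 12% of all tested genes. They lay wholly below in 4 of the 80 and in 8.69% of all. With the replicate block 3 were enriched and 0 lower, the third being *FURIN*, or 3.75% of the 80 against 3.56% of all tested genes. DESeq2 also gave 3, where 2.22% of the 12640 genes with an adjusted p were enriched. The fit with no filter beyond 1 count gave 3 as well, where 359 of all 29184 genes in that fit were enriched.

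*SHC1*, the adaptor that links active IGF1R and INSR to GRB2 and RAS, had 42.38, 45.9 and 46.78 CPM in the IgG IP and 67.41, 82.4 and 84.13 CPM in the IGF2BP3 IP. The groups did not overlap and differed by 0.79 ± 0.11 on the log2 scale (standard error, adjusted p = 0.015, edgeR). *TSC2*, which restrains mTOR downstream of AKT, had 16.26, 16.62 and 18.07 CPM in the IgG IP and 29.55, 32.33 and 29.67 CPM in the IGF2BP3 IP, also without overlap. They differed by 0.84 ± 0.11 on the log2 scale (standard error, adjusted p = 0.01325, edgeR). With a GC correction *SHC1* was at 0.64 (adjusted p = 0.03239, edgeR) and *TSC2* at 0.64 (adjusted p = 0.04498, edgeR), both nearer the thresholds. *FURIN*, a protease that cleaves the precursors of IGF1R and INSR into their mature form, had 8.347, 12.2 and 13.07 CPM in the IgG IP and 16.96, 19.79 and 20.16 CPM in the IGF2BP3 IP. Its log2 fold change was 0.75 (adjusted p = 0.09119, edgeR), 0.76 with the replicate block (adjusted p = 5.277e-05) and 0.74 with DESeq2 (adjusted p = 0.01582). With the block and a GC correction it was 0.54, under the fold change minimum. Without IgG IP replicate 2 or 3, or IGF2BP3 IP replicate 2 or 3, 0 of the 80 genes were enriched, where 19, 7, 0 and 23 of all tested genes were. In these settings *SHC1* was at 0.72 to 0.82 and *TSC2* at 0.80 to 0.90 on the log2 scale, with adjusted p of 0.06845 to 0.1153 (edgeR).

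**Figure D5:**
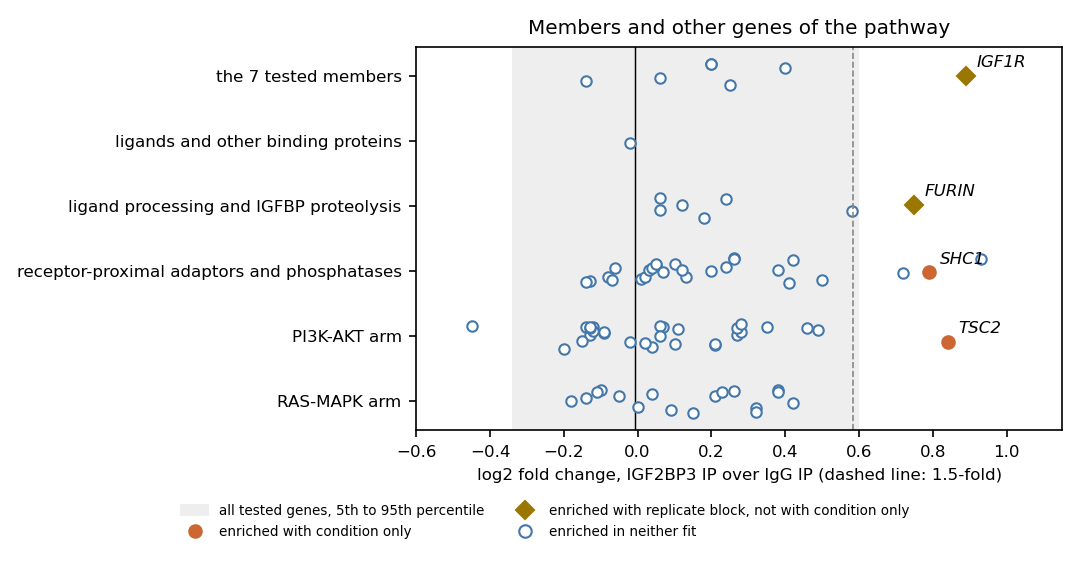
Log2 fold change (horizontal axis, IGF2BP3 IP over IgG IP) of the 7 tested members and the 80 other tested pathway genes by role (vertical axis, points spread for visibility), with filled symbols for enriched genes, the dashed line at 1.5-fold, the solid line at the median of all tested genes and the grey band from their 5th to their 95th percentile. *SHC1* (0.79) and *TSC2* (0.84) are enriched in edgeR with condition only, *IGF1R* (0.89) and *FURIN* (0.75) with the replicate block and not with condition only, and most other genes lie inside the grey band.

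By role, the other ligand and binding protein genes mostly had few or no reads. *IGF1* had 0 to 1 counts, *INS* 0, and *IGFBP1*, *IGFBP3*, *IGFBP4* and *IGFBP6* between 0 and 8, and *IGFBP7* 3 to 13. *IGFBPL1*, an IGFBP-like gene, was the 1 of 10 that was tested, with 4497 to 10772 counts and a log2 fold change of -0.02 (adjusted p = 0.9813, edgeR). At 203 ± 76.7 TPM in the IgG IP (SD, n = 3) it stood above *IGFBP2* and *IGFBP5*. All 7 tested genes of ligand processing and IGFBP proteolysis were above 0, from 0.06 to 0.75, with a median of 0.18 and 0 enriched. Of 26 tested receptor-proximal adaptors and phosphatases, 21 were above 0 and 1 was enriched, with a median of 0.11. Of 29 tested genes of the PI3K-AKT arm, 17 were above 0 and 1 was enriched, with a median of 0.06. Of 17 tested genes of the RAS-MAPK arm, 11 were above 0 and 0 were enriched, with a median of 0.15. Over all tested genes, 48.9% were above 0 and 1.16% were enriched, and each role held at most 1 enriched gene. In the PI3K-AKT arm *FOXO4*, a transcription factor that AKT keeps out of the nucleus, had the lowest value at -0.45 (adjusted p = 0.3642, edgeR).

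Genes that overlap the tested members held few counts. Those overlapping *IGF1R* had 0 to 3 per library, *DIRC3-AS1* at *IGFBP5* 3 to 12, and the antisense gene at *IRS2* 0 to 4. No input RNA was analysed here, and whether the differences follow the amount of each mRNA in the cells was not tested.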

How the data were processed

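RIP-seq libraries (150 bp, paired ends) were aligned by the authors with STAR 2.7.9a to GRCh38. They deposited unnormalized read counts per gene, TPM values from RSEM with a GENCODE annotation, and FPKM values, not used here. The counting program and its use of strand are not given in the sources used here, so overlapping and antisense genes cannot be told apart.

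Groups came from sample titles. The members and gene lists were chosen with earlier results of these data known. After filterByExpr and TMM, 14507 genes were tested in edgeR 4.0.16 (R 4.3.3). Each standard error is the estimate divided by the root of its F statistic. Alternatives were DESeq2 1.42.0, other size factors and filters, limma-trend (limma 3.58.1) on TPM values with pseudocounts 1 and 0.1, a loess GC correction (span 0.5), leaving out libraries, and a replicate block. Same-numbered libraries deviated together from their group means (correlations 0.57, 0.28 and 0.23). The numbers were therefore treated as pairs in the fits with the replicate block, though no source names a shared lysate. The main edgeR fit, with condition as the only term, and the permutation tests used no pairing. The design calls the replicates independent without saying how, and p-values cover the spread between these libraries. Limits from counts of 0 cover counting error only.

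Named genes were the 10 members, other pathway genes past the thresholds with or without the block, listed genes overlapping a member, and the 5 genes most like *IGF1R*. *IGFBPL1*, *FOXO4* and the named markers were picked after their values were seen, and the motifs and windows were set after the counts were read. Coordinates and transcripts came from GENCODE 44, which held 60437 of 60611 gene IDs. Tested on simulated data with 200 of 14507 genes changed, edgeR recovered 94% of them with 4 false calls, edgeR with the block 93% with 4, and DESeq2 85% with 2. The simulation gave all genes the same dispersion, held no shift shared by replicate 1, and used changes larger than that of *IGF1R*. These shares therefore do not give the recovery or error of the fits on the real libraries.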

Additional observations from a re-analysis of the deposited data

How the results depend on the processing

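The number of enriched members was 0 in edgeR with condition only and 1 (*IGF1R*) with DESeq2, with no filter beyond 1 count, with the replicate block, with DESeq2 and the block, with the GC correction and the block, and without both replicate 1 libraries (added after seeing the data). Its log2 fold change under these settings was 0.88, 0.87, 0.90, 0.90, 0.82 and 0.86. *IGF1R* was not called with RLE size factors (0.87, adjusted p = 0.119, edgeR) or library totals only (0.92, adjusted p = 0.1134, edgeR). Nor was it called with at least 10 counts in every library (0.89, adjusted p = 0.1067, edgeR). The GC correction alone gave 0.81 (adjusted p = 0.1949, edgeR), also not called. Of the 18 alternatives, 7 called *IGF1R* and 11 did not. Leaving out 1 library at a time gave 0 to 1 enriched members and 0.70 to 1.05 for *IGF1R*, with adjusted p from 0.04308 to 0.4286 (edgeR); the 1 call came without IGF2BP3 IP replicate 1. On TPM values it was 1.10 and 1.34, not past the threshold. The replicate block changed no other member call. Leaving out 1 library gave -0.27 to 0.03 for *IRS2*, above 0 without IgG IP replicate 2, and -0.09 to 0.18 for *IGFBP2*, below 0 without IgG IP replicate 1. For *IGF2R*, *INSR*, *IRS1* and *IGFBP5* it gave 0.02 to 0.39, 0.09 to 0.42, 0.10 to 0.32 and 0.24 to 0.59, none called. With the GC correction *IRS2* was at -0.32, and at -0.31 with the block. On TPM values the difference of *IGF1R/INSR* was 1.14, that of *IGF1R/IGF2R* 0.93, that of *IRS1/IRS2* 0.32 and that of *IGFBP2/IGFBP5* -0.27. *IGFBP2* was at -0.15 with the GC correction, without and with the block. The 2 enriched pathway genes became 0 with limma-trend on both TPM scales and 0 to 2 on leaving out 1 library, with 0 without IgG IP replicate 2 or 3 or IGF2BP3 IP replicate 2 or 3. With the GC correction and the block, 1 pathway gene was lower, *FOXO4* (-0.60, adjusted p = 0.01517, edgeR). Of all 14479 genes tested in that setting, 35 were lower. Over all genes, 281 were enriched with DESeq2, 359 without a filter, 517 with the block, 80 with the GC correction, 0 on TPM values and 0 to 244 on leaving out 1 library, against 169. The causes were not tested. The lowest count of a tested member was 116.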
